A study of Mus musculus with 8 samples.

Results

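The genes described here are 10 imprinted genes of growth control: *H19*, *Igf2*, *Cdkn1c*, *Dlk1*, *Meg3*, *Rian*, *Mirg*, *Peg3*, *Plagl1* and *Grb10*. They were chosen by name, and each name matched 1 of the 47643 rows of the deposited expression table. Quadriceps muscle was taken from 4 mice labelled *Nup210*+/+ and 4 labelled *Nup210*-/-, all of the C57BL/6 strain, and polyadenylated RNA was sequenced with 1 library per mouse. The *Nup210*-/- line was made by crossing mice with a floxed *Nup210* allele to Hprt-Cre mice, which deletes exon 2 in the whole animal, so the muscle fibers and every other cell of the tissue carry the deletion. Nup210 is a transmembrane protein of the nuclear pore complex. The age and sex of these mice are not given in the sources used here. The comparison asks how muscle gene expression differs when Nup210 is lost.

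An imprinted gene is transcribed mainly or only from the copy inherited from 1 parent, because DNA methylation laid down in the egg or the sperm marks a control region nearby. Many such genes act on growth. *Igf2*, *Dlk1*, *Peg3* and *Plagl1* are expressed from the paternal copy, and *H19*, *Cdkn1c*, *Meg3*, *Rian* and *Mirg* from the maternal copy. *Grb10* is maternal in most tissues and paternal in neurons. In muscle, *H19* and *Igf2* are abundant before birth, and *H19* stays on in adult fibers. The values here are per gene and do not separate the parental copies, so they measure how much of a transcript was present and not whether its imprint was kept.

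Expression was given as TPM, a relative transcript abundance in which an estimate is divided by transcript length and brought to a total of 1000000 per library, so levels of different genes can be compared. The number of reads behind a value is unknown. Between 18185 and 19357 genes were above 0 TPM in a library. *Nup210* mRNA was 9.54, 10.79, 11.93 and 8.81 TPM in the libraries labelled *Nup210*-/- and 5.71, 10.11, 9.19 and 6.71 TPM in those labelled *Nup210*+/+. It was not lower in the knockout libraries, and a gene-level value does not show exon 2, so the genotypes of these libraries follow the labels alone. For the mouse line, the paper reported loss of Nup210 protein in muscle by immunoprecipitation and immunofluorescence. A pair of *Nup210*+/+ libraries stood apart. Replicate 2 held 381.69 TPM of 6 granulocyte precursor genes against 0.31 to 2.12 TPM in the others, and 9.07 TPM of 4 Y-linked genes against 0 to 0.7 TPM. In replicate 4, *Xist*, the RNA of the inactive X chromosome, was 0.01 TPM, while the other 7 libraries held 36.45 to 49.37 TPM, and the Y-linked genes were also at 0.01 TPM. The 6 muscle fiber markers (*Acta1*, *Ckm*, *Myh4*, *Myh1*, *Tnnt3* and *Ttn*) summed to 74222 to 79338 TPM in *Nup210*-/- and 67815 to 71424 TPM in *Nup210*+/+, without overlap (exact permutation p = 0.0286), and 0 of the 6 were called by limma. Their part in the results below was not tested.

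For the comparison, TPM were divided by a scaling factor per library (median of ratios) and expressed as log2 after adding a pseudocount of 1. Genes with a mean of at least 0.5 TPM were tested with limma, which all 10 members passed. None of the 10 members was called at an adjusted p of 0.05 (limma, Benjamini-Hochberg over 14229 genes), where 0.112% of all tested genes were called, 0.0492% as higher and 0.0633% as lower in *Nup210*-/-. At an unadjusted p of 0.05 limma passed 1 member, *Peg3*, where 14.2% of all tested genes passed. The exact permutation test over the 70 ways of labelling 4 of 8 libraries, whose smallest p is 0.0286, passed 0 of 10 on TPM and 0 of 10 on scaled TPM. In 0 of 10 members were the genotypes without overlap, where 9.38% of all tested genes were without overlap on scaled TPM and 8.41% on TPM. In tissue RNA, fewer cells of a type and less RNA per cell cannot be told apart. The median log2 fold change of the members was 0.07, against −0.01 over all tested genes, with 7 estimates above 0 and 3 below. With TPM as deposited the median of all genes was −0.08, and the members then had a median of −0.02, 5 above 0 and 5 below, and 2 members passed an unadjusted p of 0.05, *Peg3* as higher and *Grb10* as lower, with 0 called.

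**Figure D1:**
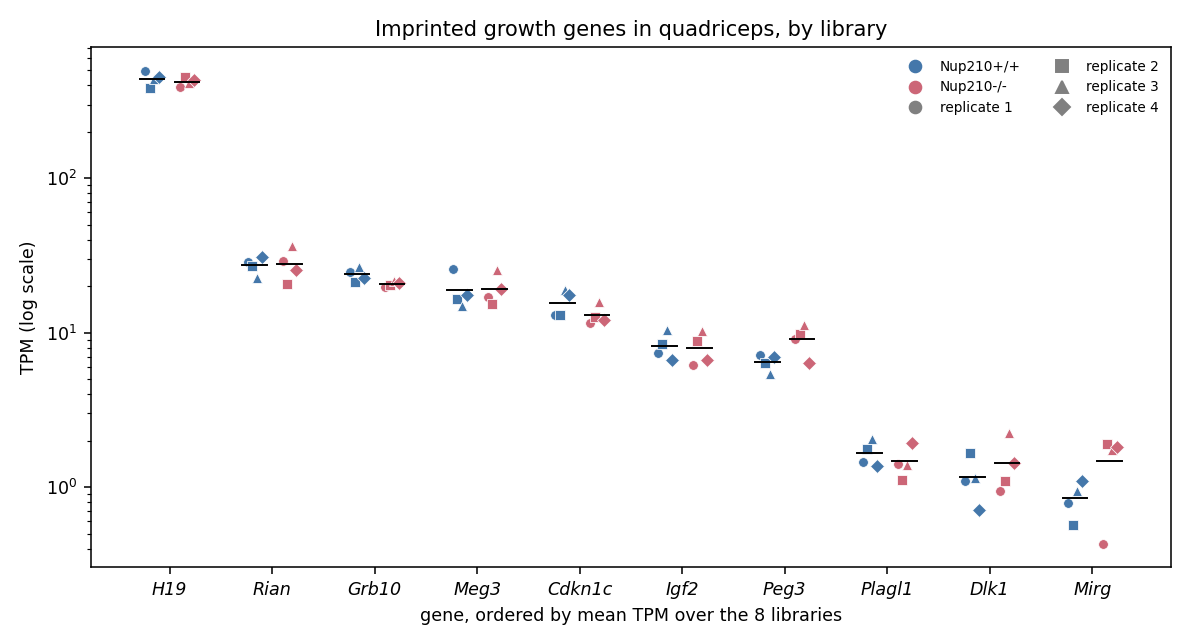
TPM of the 10 imprinted genes in each library on a log scale, with genes ordered by mean TPM; blue points are Nup210+/+, red points Nup210-/-, marker shapes are replicate numbers, and black lines are genotype means. The genotypes overlap in every gene, H19 lies between 383 and 495 TPM, and Plagl1, Dlk1 and Mirg lie near 1 TPM.

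The level of the members differed much more between genes than between mice. *H19* led at a mean of 432 TPM over the 8 libraries, above 98.6% of the genes tested, and made up 76.8 to 83.1% of the summed TPM of the 10 members. *Rian* followed at 27.6 TPM, *Grb10* at 22.25, *Meg3* at 19.01, *Cdkn1c* at 14.3, *Igf2* at 8.08, *Peg3* at 7.78, *Plagl1* at 1.56, *Dlk1* at 1.29 and *Mirg* at 1.16 TPM. The range of *H19* did not meet that of *Rian*, *Cdkn1c* lay wholly above *Igf2*, and *Peg3* wholly above *Plagl1*. The other neighbours in this order overlapped over the libraries. *Igf2* exceeded *Peg3* in 1 of 4 *Nup210*-/- libraries and 3 of 4 *Nup210*+/+ libraries, and *Dlk1* exceeded *Mirg* in 5 of 8.

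*H19* and *Igf2* are neighbours on chromosome 7 of GRCm38 (mm10) and share enhancers, and methylation of the control region between them decides which is transcribed from a chromosome. *H19* (ENSMUSG00000000031, minus strand, 142575529 to 142578143) is a long noncoding RNA with 5 exons in its longest transcript. It carries the hairpin of miR-675 in an exon. The mature strands are shown because *H19* was the most abundant member and this is the small RNA cut from it, with the seed (bases 2 to 8) in capitals, from the RefSeq table for GRCm38.p6:
miR-675-5p: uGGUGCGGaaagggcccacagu
miR-675-3p: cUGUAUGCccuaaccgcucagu
The first lies at chr7:142577112-142577133 and the second at chr7:142577078-142577099, both on the minus strand. The libraries do not measure them, and the row of the miR-675 gene was listed at 0 in all 8.

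*H19* was 389.88, 449.32, 415.96 and 432.64 TPM across replicates 1 to 4 with the *Nup210*-/- label, averaging 422 ± 25.3 (SD, n = 4). Replicates 1 to 4 labelled *Nup210*+/+ held 494.73, 382.96, 437.97 and 452.48 TPM, averaging 442 ± 46.2 (SD, n = 4). The *Nup210*+/+ libraries held both the highest and the lowest value, so the knockout values lay inside their range. On the log2 scale the fold change was 0.03 (standard error 0.0969, 95% interval −0.19 to 0.25, limma adjusted p = 0.908), and its sign depended on the scaling, being −0.063 with TPM as deposited. The interval spans 0.878-fold to 1.19-fold, the narrowest range of fold changes among the members but that of *Grb10*.

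*Igf2* (ENSMUSG00000048583, minus strand, 142650766 to 142666816) encodes insulin-like growth factor 2, a secreted factor that drives growth before birth. It was 6.18, 8.82, 10.19 and 6.64 TPM in the *Nup210*-/- libraries, averaging 7.96 ± 1.88 (SD, n = 4). The *Nup210*+/+ libraries held 7.38, 8.44, 10.34 and 6.64 TPM, averaging 8.20 ± 1.61. In both genotypes the highest value was near 10 TPM and the lowest above 6 TPM. The log2 fold change was 0.04 (standard error 0.140, 95% interval −0.28 to 0.35, limma adjusted p = 0.925), and −0.046 with TPM as deposited. Within a library, *Igf2* was 0.0147 to 0.0245 times *H19*. This ratio was near 0.015 in *Nup210*-/- replicates 1 and 4 (0.0159 and 0.0153) and *Nup210*+/+ replicates 1 and 4 (0.0149 and 0.0147), and higher in replicates 2 and 3 of both genotypes (0.0196 and 0.0245, and 0.0220 and 0.0236). The genotypes differed by 0.01 in log2 ratio (exact permutation test, p = 1.0). In GENCODE M21, a later annotation than that used for the TPM, a protein-coding gene model on the same strand, Gm49394, overlaps exons of *Igf2*. Reads could be split between them only if the earlier annotation held that model, which was not examined.

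*Cdkn1c* (ENSMUSG00000037664, chromosome 7, minus strand, 143458339 to 143461050) encodes p57, an inhibitor of cyclin-dependent kinases that stops cells dividing. It was 11.50, 12.56, 15.74 and 12 TPM across replicates 1 to 4 with the *Nup210*-/- label, averaging 12.95 ± 1.91 (SD, n = 4). In the *Nup210*+/+ libraries it was 13.07, 12.97, 19 and 17.59 TPM, averaging 15.7 ± 3.10 (SD, n = 4). On TPM, replicate 3 alone of the knockout libraries exceeded the lowest *Nup210*+/+ value, and on scaled TPM replicates 2, 3 and 4 did. The log2 fold change was −0.16 (standard error 0.136, 95% interval −0.47 to 0.15, limma adjusted p = 0.620), and by exact permutation p was 0.171 for TPM and 0.314 for scaled TPM. Leaving out 1 library gave −0.24 to −0.064, the latter without *Nup210*+/+ replicate 4.

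*Dlk1*, *Meg3*, *Rian* and *Mirg* lie in this order on the plus strand of chromosome 12 and share a control region upstream of *Meg3*. *Dlk1* (ENSMUSG00000040856, 109452823 to 109463336) encodes a transmembrane relative of the Notch ligands that acts in muscle growth and fat cell differentiation. *Meg3* (ENSMUSG00000021268, 109541001 to 109571726), *Rian* (ENSMUSG00000097451, 109603940 to 109661716) and *Mirg* (ENSMUSG00000097391, 109729764 to 109749460) are noncoding, and their introns and exons carry small nucleolar RNAs and a large cluster of miRNAs. RefSeq lists 106 mature miRNAs on the plus strand from the start of *Meg3* to the end of *Mirg*, of which 3 lie in *Meg3*, 6 in *Rian* and 26 in *Mirg*. Among 97 different seeds, 8 were shared by 2 differently named miRNAs of the interval. The pairs below are shown because the second joins *Mirg* to the cluster upstream of it, with seeds in capitals:
miR-379-5p: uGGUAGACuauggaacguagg
miR-1193-5p: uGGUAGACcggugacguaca
miR-494-5p: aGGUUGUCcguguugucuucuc
miR-410-5p: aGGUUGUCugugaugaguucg
They lie at chr12:109709065-109709085, chr12:109715716-109715735, chr12:109715334-109715355 and chr12:109743729-109743749 of GRCm38.p6, and only miR-410 lies inside *Mirg*. The deposited table has 35 rows of miRNAs and small nucleolar RNAs inside *H19*, *Igf2*, *Meg3*, *Rian* and *Mirg*, and 34 of them were listed at 0 in all libraries. The exception, *Mir1906-1*, an 80-base model that overlaps an exon of *Meg3* on its strand, was 0 to 4.58 TPM in *Nup210*-/- and 0 to 25.56 TPM in *Nup210*+/+. Its reads cannot be told apart from those of *Meg3*.

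*Meg3* was 16.99, 15.34, 25.48 and 19.08 TPM in the libraries labelled *Nup210*-/-, averaging 19.2 ± 4.44 (SD, n = 4). It was 25.97, 16.56, 14.99 and 17.65 TPM in the *Nup210*+/+ libraries, averaging 18.8 ± 4.91 (SD, n = 4). A single mouse of each genotype, *Nup210*-/- replicate 3 and *Nup210*+/+ replicate 1, reached 25 TPM and the other 6 stayed below 20 TPM. *Rian* was 29.21, 20.55, 36.22 and 25.56 TPM in *Nup210*-/- (27.9 ± 6.59) and 28.55, 26.92, 22.71 and 30.77 TPM in *Nup210*+/+ (27.2 ± 3.41, SD, n = 4). *Nup210*-/- replicates 2 and 3 held its lowest and highest value, and the *Nup210*+/+ values lay between them. The log2 fold changes were 0.13 for *Meg3* (standard error 0.197, 95% interval −0.32 to 0.57, limma adjusted p = 0.801) and 0.10 for *Rian* (standard error 0.178, 95% interval −0.30 to 0.51, limma adjusted p = 0.820). These RNAs varied more between mice than most genes of their level. Of the 500 tested genes nearest in mean log2 level, 96.6% had a smaller spread within genotypes than *Meg3* (SD 0.33 on the log2 scale) and 94.2% a smaller one than *Rian* (SD 0.30).

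*Mirg* was 0.43, 1.90, 1.73 and 1.81 TPM across replicates 1 to 4 with the *Nup210*-/- label, averaging 1.47 ± 0.695 (SD, n = 4). The *Nup210*+/+ libraries held 0.79, 0.57, 0.94 and 1.10 TPM, averaging 0.850 ± 0.226 (SD, n = 4). Replicates 2 to 4 of *Nup210*-/- lay above every *Nup210*+/+ library, and replicate 1 lay below them all. The log2 fold change was 0.41 (standard error 0.239, 95% interval −0.13 to 0.95, limma adjusted p = 0.459; exact permutation test, p = 0.143 on TPM). Without *Nup210*-/- replicate 1 it was 0.66 (limma adjusted p = 0.285). At these levels the fold change depends on the pseudocount and was 0.66 with a pseudocount of 0.1.

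*Dlk1* was 0.95, 1.09, 2.23 and 1.44 TPM in *Nup210*-/- and 1.10, 1.67, 1.15 and 0.71 TPM in *Nup210*+/+, means of 1.43 ± 0.573 and 1.16 ± 0.394 (SD, n = 4). *Nup210*-/- replicate 3, which also had the highest *Rian* of all libraries, had the highest *Dlk1*. Its log2 fold change was 0.21 (standard error 0.190, 95% interval −0.22 to 0.64, limma adjusted p = 0.634). It was 0.077 without *Nup210*-/- replicate 3 and 0.35 with a pseudocount of 0.1. The 5 satellite cell markers summed to 3.36 to 4.77 TPM in *Nup210*-/- and 3.58 to 5.20 TPM in *Nup210*+/+, and the 5 markers of regenerating fibers to 6.90 to 8.92 and 7.07 to 11.1 TPM.

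Ratios within a library do not depend on library scaling and show whether the transcripts of the interval kept their proportions. *Rian* was 1.34 to 1.72 times *Meg3* in *Nup210*-/- and 1.10 to 1.74 times in *Nup210*+/+, above 1 in all 8 libraries. The genotypes differed by −0.03 in log2 ratio (exact permutation test, p = 0.857). *Dlk1* was 0.0559 to 0.0875 times *Meg3* in *Nup210*-/- and 0.0402 to 0.101 times in *Nup210*+/+, a difference of 0.25 (exact permutation test, p = 0.543) that ranged from 0.054 without *Nup210*+/+ replicate 4 to 0.50 without *Nup210*+/+ replicate 2. The ratio of *Mirg* to *Rian* was 0.0147, 0.0925, 0.0478 and 0.0708 in *Nup210*-/- and 0.0277, 0.0212, 0.0414 and 0.0357 in *Nup210*+/+. As for *Mirg* itself, *Nup210*-/- replicate 1 was the lowest of the 8 libraries and the other 3 were the highest. The difference in log2 ratio was 0.60 (exact permutation test, p = 0.371, adjusted over 5 ratios 0.905). Without *Nup210*-/- replicate 1 it was 1.15 (exact permutation test, p = 0.0286, adjusted over 5 ratios 0.143). This is the smallest p possible after that removal. It restates the order of the other libraries once the library against the difference is left out. Without *Nup210*-/- replicate 2 the difference was 0.27 (exact permutation test, p = 0.686). *Mirg* to *Meg3* differed by 0.58 (exact permutation test, p = 0.343), with 1.04 when *Nup210*-/- replicate 1 was left out (exact permutation, p = 0.0857) and 0.28 when replicate 2 was (p = 0.657).

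**Figure D2:**
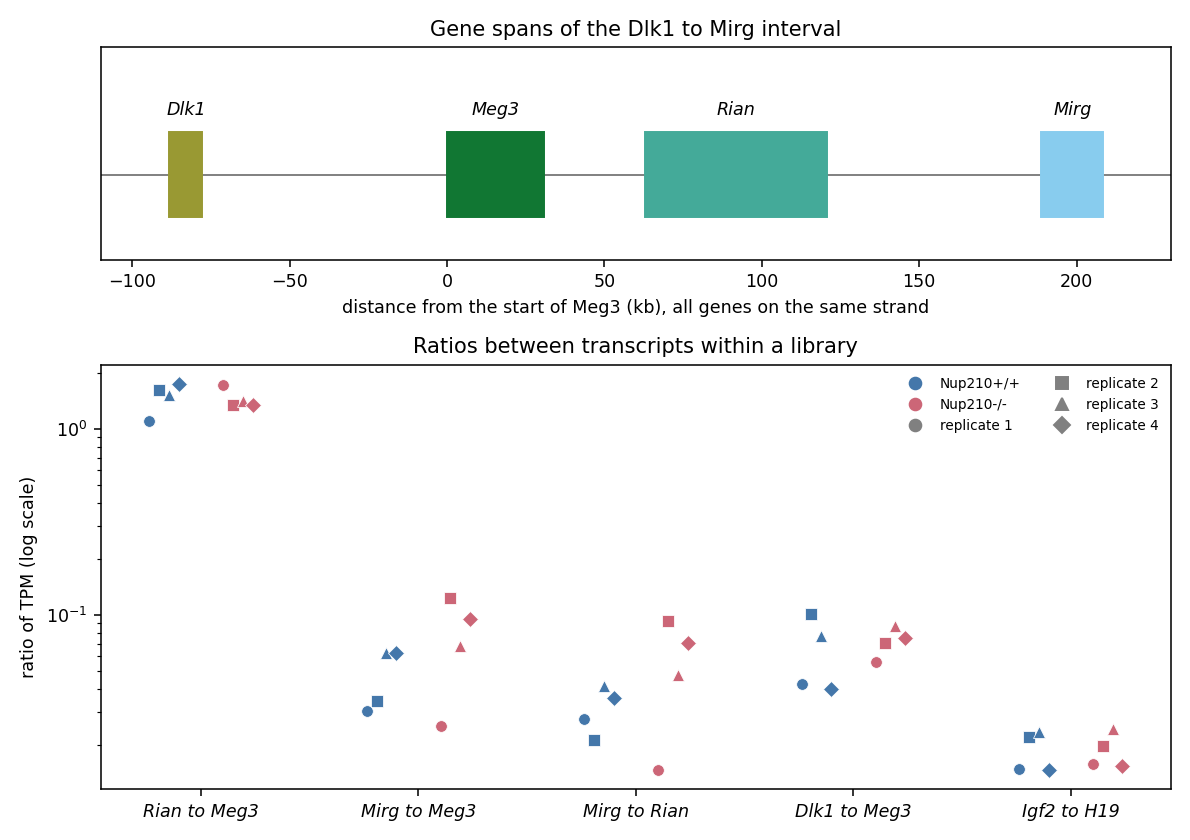
Top, the spans of Dlk1, Meg3, Rian and Mirg as distance in kb from the start of Meg3; bottom, ratios of TPM within each library on a log scale, blue for Nup210+/+ and red for Nup210-/-, with marker shapes for replicate numbers. Rian to Meg3 stays between 1.10 and 1.74, and in Mirg to Rian the circle of Nup210-/- replicate 1 (0.0147) lies below all others while the other 3 red points lie above all blue ones.

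*Peg3* (ENSMUSG00000002265, chromosome 7, minus strand, 6703892 to 6730431) encodes a zinc finger protein of the paternal copy that binds DNA and acts in growth and cell survival. It was 9.11, 9.82, 11.14 and 6.38 TPM across replicates 1 to 4 with the *Nup210*-/- label, averaging 9.11 ± 2.01 (SD, n = 4). In the *Nup210*+/+ libraries it was 7.15, 6.35, 5.36 and 6.93 TPM, averaging 6.45 ± 0.800 (SD, n = 4). Replicates 1 to 3 labelled *Nup210*-/- lay above every *Nup210*+/+ library, and replicate 4 lay within their range. The log2 fold change was 0.51 (standard error 0.158, 95% interval 0.15 to 0.86, unadjusted p = 0.0107, limma adjusted p = 0.210), and by exact permutation p was 0.0857. *Peg3* therefore did not pass the adjusted threshold. Its neighbours on the chromosome that were tested, *Zim1* and *Usp29*, had estimates of 0.13 and −0.07 on the log2 scale, with limma adjusted p of 0.622 and 0.898.

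*Peg3* and *Meg3* had a feature of sequence in common. Promoter windows of 300 bases, from 250 before to 50 after an annotated start, were given for 8 of the 10 members (13 windows, RefSeq on GRCm38.p6), not for *H19* and *Cdkn1c*. The 8 letters TGACGTCA, the full cyclic AMP response element, which read the same on both strands, were noticed in the *Peg3* window and then searched in all. They occurred in 2 of 13 windows, those of *Peg3* and of the first start of *Meg3*, and in 1.79% of 32851 windows of all genes. Because the *Peg3* match prompted the search, the count does not show that members carry these letters more often than other genes. The element begins 178 bases before the start of *Peg3* and 57 before that of *Meg3*. Both windows are shown for this match, which stands in capitals, at chr7:6730370-6730669 on the minus strand and chr12:109540746-109541045 on the plus strand:
*Peg3*: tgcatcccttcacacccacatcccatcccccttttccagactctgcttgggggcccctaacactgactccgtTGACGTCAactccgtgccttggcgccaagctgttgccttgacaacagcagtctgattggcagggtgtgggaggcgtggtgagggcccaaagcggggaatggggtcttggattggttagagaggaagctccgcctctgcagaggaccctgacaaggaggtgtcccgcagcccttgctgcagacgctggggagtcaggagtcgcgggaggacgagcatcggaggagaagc
*Meg3*: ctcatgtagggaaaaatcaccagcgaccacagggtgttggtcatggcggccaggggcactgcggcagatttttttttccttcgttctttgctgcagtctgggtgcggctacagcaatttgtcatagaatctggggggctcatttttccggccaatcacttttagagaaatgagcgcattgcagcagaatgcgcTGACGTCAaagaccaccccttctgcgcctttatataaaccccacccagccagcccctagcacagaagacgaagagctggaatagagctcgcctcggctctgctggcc
Other motifs were searched on both strands. A loose MEF2 pattern, with any base allowed at its 4 middle positions, was in 1 of 13 windows, at a start of *Grb10*. It was in 3.69% of all windows, and a match to it need not be a MEF2 site. The YY1 core AAGATGGC was in 0 of 13 and in 2.75% of all windows. TGCCGC, the hexamer bound by Zfp57 when methylated, was in 4 of 13 (*Igf2*, *Plagl1*, *Grb10* and *Meg3*) and in 11.6% of all. The CTCF core consensus was in 0 of 13 and in 0.0365% of all. The windows also differed in CpG content, from 0 CpG at the start of *Rian* and 13 at the start of *Peg3* to 45 at a start of *Grb10*, where the median of all windows was 7.

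*Plagl1* (ENSMUSG00000019817, chromosome 10, plus strand, 13060504 to 13131694) encodes a zinc finger transcription factor known to act on other imprinted genes. It was 1.41, 1.11, 1.40 and 1.94 TPM in *Nup210*-/- and 1.45, 1.77, 2.06 and 1.37 TPM in *Nup210*+/+, means of 1.47 ± 0.346 and 1.66 ± 0.316 (SD, n = 4). All 8 libraries lay between 1.11 and 2.06 TPM with no order of the genotypes. The log2 fold change was −0.05 (standard error 0.141, 95% interval −0.37 to 0.26, limma adjusted p = 0.892).

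*Grb10* (ENSMUSG00000020176, chromosome 11, minus strand, 11930508 to 12038683) encodes an adaptor that binds the insulin and IGF receptors and dampens their signal. Its values were 19.77, 20.43, 21.45 and 20.82 TPM in *Nup210*-/- (20.6 ± 0.704) and 24.86, 21.22, 26.79 and 22.66 TPM in *Nup210*+/+ (23.9 ± 2.45, SD, n = 4). On TPM only *Nup210*-/- replicate 3 exceeded the lowest *Nup210*+/+ library, replicate 2, but on scaled TPM all 4 *Nup210*-/- libraries (20.7 to 22.2) did, since that library was at 20.5. The log2 fold change on scaled values was −0.11 (standard error 0.0690, 95% interval −0.26 to 0.05, limma adjusted p = 0.499), and by exact permutation p was 0.0571 for TPM and 0.143 for scaled TPM. With TPM as deposited the fold change was −0.20 (limma adjusted p = 0.330). *Grb10* was the steadiest member, and 15.8% of the 500 tested genes nearest in level had a smaller spread within genotypes.

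**Figure D3:**
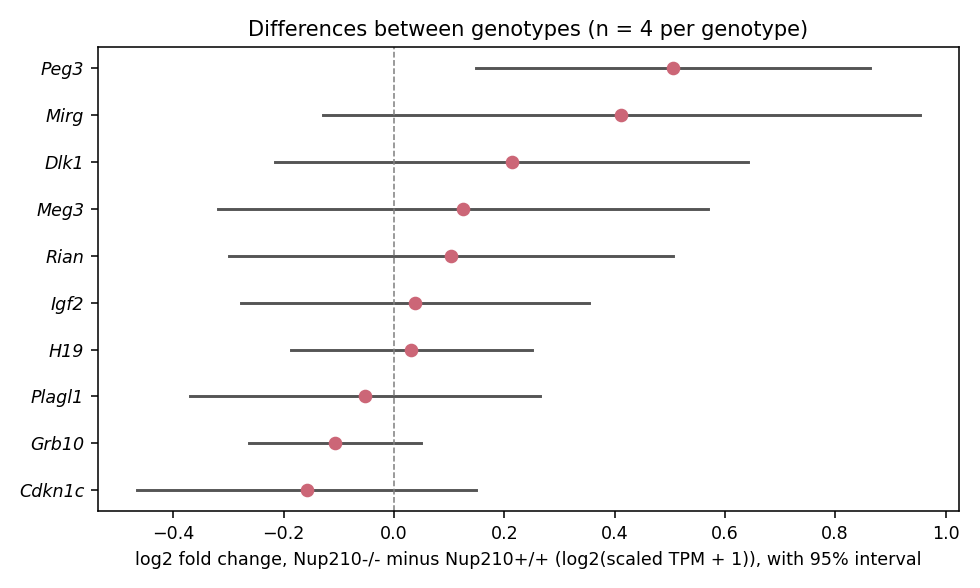
Log2 fold change of each member between genotypes (Nup210-/- minus Nup210+/+, log2(scaled TPM + 1)), with points for the limma estimate and lines for its 95% interval, n = 4 per genotype. The interval of Peg3 (0.15 to 0.86) lies above 0 before adjustment over all genes, and the other 9 intervals include 0.

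Whether members varied together between mice was examined after the mean of each genotype was removed, over 8 libraries and 45 pairs, with exact permutation within genotypes. No pair passed an adjusted p of 0.05, and 1 of 45 passed an unadjusted p of 0.05 by Pearson and 0 by Spearman. *Meg3* and *Rian* had the highest Pearson coefficient (Pearson r = 0.74, exact permutation p = 0.0573, adjusted 0.918; Spearman rho = 0.64, p = 0.111, adjusted 0.982), and without the 2 libraries farthest from the median of *Meg3* r was 0.83. *Peg3* and *Plagl1* had the lowest Pearson coefficient (Pearson r = −0.85, exact permutation p = 0.0191, adjusted 0.859; Spearman rho = −0.76, p = 0.0556, adjusted 0.982). Without the 2 libraries farthest from the median of *Peg3*, r was −0.42. Leaving those out also narrows the range of *Peg3*, so this value does not show what the relation rested on. *H19* and *Igf2* had r = −0.43 (exact permutation p = 0.238, adjusted 0.968; Spearman rho = −0.31, p = 0.361, adjusted 1.0). *Mirg* did not follow *Meg3* (r = 0.13) or *Rian* (r = −0.15) closely (exact permutation p = 0.773 and 0.745, adjusted 0.968 for both; Spearman rho = 0.07 and −0.29, p = 0.863 and 0.604, adjusted 1.0 for both).

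The genes whose log2 values were most like those of a member over the 8 libraries were not among the tested genes within 250 kb of it. For *H19* they were *Auh* (Pearson r = 0.96), *Esrra* (0.96), which encodes a nuclear receptor of energy metabolism, and *Myh2* (0.95), the myosin of oxidative fast fibers. For *Rian* they were *Casq1* (0.98), which encodes the calcium-binding protein of the fast-fiber reticulum, *Fundc1* (0.97) and *Fam96b* (0.95), and for *Meg3* *Cgrrf1* (0.95), *C1qtnf4* (0.95) and *Mpp3* (0.94). *Dlk1* was most like *Eif2ak3* (0.97), *Rnaseh2c* (0.95) and *Nat10* (0.95), and *Mirg* most like *Gm36936* (0.98), *Gm15459* (0.97) and *Ptpn23* (0.95). *Igf2* was nearest to *Irak2* (0.96), *Dnajc1* (0.95) and *Pcdhgb4* (0.95), and *Cdkn1c* to *Snord15b* (0.94), *Ccdc59* (0.94) and *Il17d* (0.93). *Peg3* was nearest to *Satb1* (0.97), *Exoc3l* (0.96) and *Ralgapa1* (0.95), *Plagl1* to *Hps1* (0.96), *Gm11401* (0.93) and *Rab43* (0.92), and *Grb10* to *Klhdc8b* (0.94), *Hoxaas3* (0.94) and *Cnrip1* (0.94). These are the highest of 14229 genes over 8 libraries that were sequenced as a pool and share a total of 1000000, and no test is attached to them.

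Other imprinted genes of the mouse were taken as a list of 54, of which 35 were expressed well enough to be tested. None was called by limma at an adjusted p of 0.05, the lowest adjusted p was 0.203, and 8 passed an unadjusted p of 0.05 (22.9%, against 14.2% of all tested genes), 5 with a higher and 3 with a lower estimate. Their median log2 fold change was 0.03, with 21 estimates above 0 and 14 below. *Ddc* and *Nap1l5* averaged 0.31 and 0.38 TPM in *Nup210*-/- and 0.75 and 0.70 TPM in *Nup210*+/+. They passed the filter of 0.5 TPM through their *Nup210*+/+ libraries, so their estimates below 0 are no support for the count. With TPM as deposited 4 genes of the list passed an unadjusted p of 0.05 (1 higher, 3 lower). The median was then −0.06, with 10 estimates above 0 and 25 below. All tested genes shifted likewise under that setting, to a median of −0.08, with 4322 estimates above 0 and 9907 below. At an unadjusted p of 0.05, 335 of all tested genes were then higher and 1679 lower. On scaled TPM, genotypes did not overlap in 4 of 35 (11.4%, against 9.38% of all). Of these, *Igf2r* and *Slc38a4* overlapped on TPM as deposited. *Snurf* had the largest estimate, 0.77 (standard error 0.236, limma adjusted p = 0.207), at 30.4 ± 7.92 TPM in *Nup210*-/- and 18.4 ± 3.62 in *Nup210*+/+ (SD, n = 4). *Snurf* shares its transcript with *Snrpn*, whose estimate was 0.07, so its value is uncertain, and the split of reads between them was not tested. *Mest*, a paternal gene of growth, was 3.78 ± 0.719 and 2.84 ± 0.503 TPM (log2 fold change 0.39, limma adjusted p = 0.265). *Nnat* was 24.2 ± 2.28 and 38.1 ± 22.7 TPM (log2 fold change −0.38, limma adjusted p = 0.596), with 18.13 to 70.68 TPM among the *Nup210*+/+ mice. The most abundant of the list, *Gnas*, which encodes a G protein subunit, *Nap1l4* and *Commd1*, had log2 fold changes of 0.13, 0.14 and 0.04.

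Of 23 genes that bind, carry or answer IGFs, 17 were tested and 0 were called by limma. At an unadjusted p of 0.05, 4 passed (23.5%, against 14.2% of all tested genes), 1 higher and 3 lower. With TPM as deposited 0 passed as higher and 4 as lower, where 335 of all tested genes passed as higher and 1679 as lower. The median log2 fold change on scaled TPM was −0.19. On scaled TPM, genotypes did not overlap in 3 of 17 (17.6%, against 9.38% of all): *Igf1*, *Igf2bp3* and *Igf2r*, whose estimate was above 0 (0.16). On TPM as deposited *Igf2r* overlapped, at 16.43 to 17.8 TPM in *Nup210*-/- and 14.25 to 18.28 TPM in *Nup210*+/+. *Igf2r* is also in the list of other imprinted genes and is counted in both. *Igf1*, the growth factor of adult muscle, was 7.27 to 10.5 TPM in *Nup210*-/- and 13.1 to 25.5 TPM in *Nup210*+/+ without overlap (log2 fold change −0.66, standard error 0.173, limma adjusted p = 0.169). *Igf2bp3*, an RNA-binding protein named for *Igf2* mRNA, was 0.318 ± 0.112 and 1.21 ± 0.795 TPM (SD, n = 4; log2 fold change −0.66, limma adjusted p = 0.248). *Igf2bp3* passed the filter of 0.5 TPM through its *Nup210*+/+ libraries alone. Its place among the lower genes and among those without overlap is therefore no support for either count. *Pappa2*, at a mean of 0.45 TPM in *Nup210*-/- and 0.63 TPM in *Nup210*+/+, also passed through its *Nup210*+/+ libraries. The estimates of both, below 0, are no support for the median. *Irs1* had −0.46 (limma adjusted p = 0.471), and the most abundant, *Igfbp5*, *Igfbp6* and *Igfbp7*, had −0.38, −0.29 and −0.19. The 6 fibroblast markers, all with estimates below 0, summed to 348 to 398 TPM in *Nup210*-/- and 421 to 664 TPM in *Nup210*+/+ (exact permutation p = 0.0286), and the 5 leukocyte markers, also all below 0, to 23.7 to 27.9 and 27.6 to 52.7 TPM. Of the markers 1, *Cd52*, was called by limma. Their part in these values was not tested.

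Among 16 factors of DNA methylation and imprint control, 11 were tested and 0 were called by limma. Of the 11, 1 passed an unadjusted p of 0.05 (9.09%, against 14.2% of all tested genes). This was *Zfp445*, a zinc finger protein that guards imprinted control regions, at 12.8 ± 1.12 TPM in *Nup210*-/- and 11.4 ± 0.979 in *Nup210*+/+ (SD, n = 4; log2 fold change 0.25, limma adjusted p = 0.202). *Uhrf1* had the estimate farthest from 0, −0.74 (limma adjusted p = 0.451), with 4.25 TPM in *Nup210*+/+ replicate 2, and without that library its mean was under the 0.5 TPM needed for a test. The 5 dividing-cell markers summed to 48.51 TPM in that library and 1.08 to 2.12 TPM in the other 7, and their part in this value was not tested. *Smchd1* had −0.18. The most abundant were *Trim28* (−0.18), *Ctcf* (0.12) and *Ehmt2* (0.00). The list's median was 0.00.

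**Figure D4:**
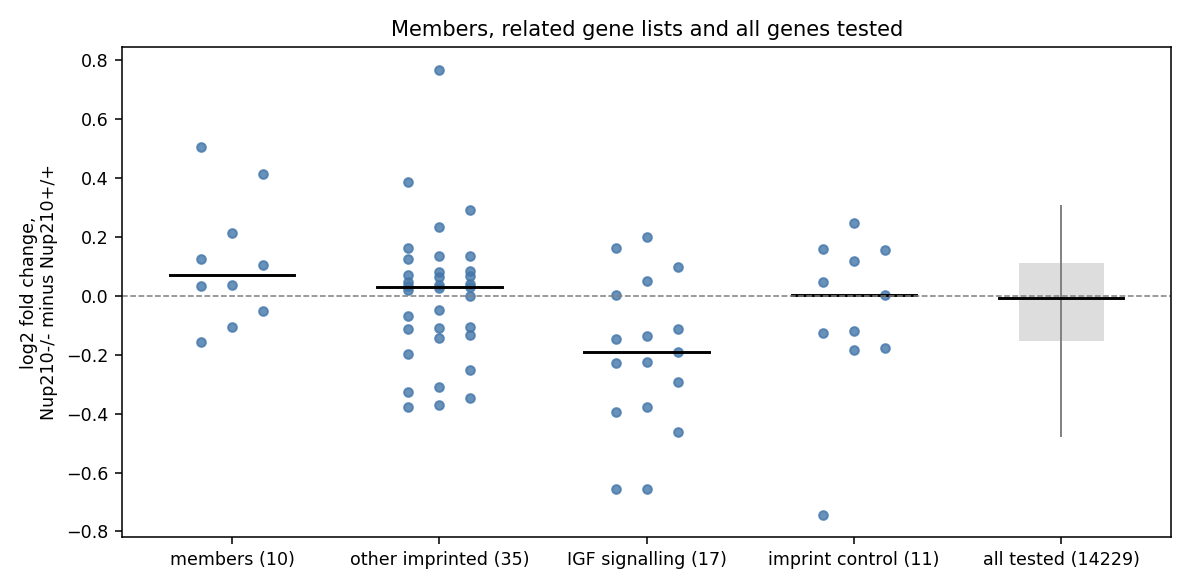
Log2 fold changes (Nup210-/- minus Nup210+/+) of the tested genes of each list as points, with black lines for medians; for all 14229 tested genes the box spans the 25th to 75th percentile (−0.15 to 0.11) and the line the 5th to 95th (−0.48 to 0.30). The medians are 0.07 for the members, 0.03 for other imprinted genes, −0.19 for IGF signalling genes and 0.00 for imprint control genes, and no point was called.

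Genes within 250 kb of a member were taken as a neighbourhood, a rule chosen after values were seen. Of 24 such tested genes that are no members, 0 were called by limma and 3 passed an unadjusted p of 0.05 (12.5%, against 14.2% of all tested genes). They were, near *H19* and *Igf2*, *Lsp1*, a leukocyte gene (log2 fold change −0.46, limma adjusted p = 0.116), *Prr33* (0.23, limma adjusted p = 0.169) and *Nctc1*, a noncoding RNA of the shared muscle enhancer region (0.31, limma adjusted p = 0.197).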

How the data were processed

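RNA of 8 quadriceps muscles (4 per genotype, labels of the samples) was sequenced by the authors as 75-base single reads from directional poly(A) libraries. Per the labels and methods, the authors trimmed reads with cutadapt 2.3, aligned them to mm10 with STAR 2.7.0d and estimated expression with RSEM 1.3.1 and Ensembl 84 annotation. They deposited TPM per gene and library with 2 decimals and without pooling. TPM are relative to the total of a library, and depth cannot be recovered from them.

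TPM were scaled by the median of ratios over 15225 genes above 0 in all libraries (factors 0.936 to 1.12). The 14229 genes with a mean of at least 0.5 TPM were tested as log2(scaled TPM + 1) with limma 3.58.1 in R 4.3.3 (eBayes with trend, genotype as the only term, Benjamini-Hochberg adjustment). Fold changes on this scale understate those of low genes. Permutation tests were exact and two-sided. Other pseudocounts, filters, scalings, variance models, a replicate block and leaving out each library were tried. The limma p-values set a genotype difference against the spread between mice, moderated over genes. The permutation p-values set a value against those of rearranged libraries. The limma fit and the adjustment were also run on simulated log2 values with known changes. That run left out the scaling, filter and pseudocount steps, and its outcome is not given here. No 2 libraries were the same: at most 201 tested genes had equal TPM.

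Members, gene lists and designs were chosen with earlier results of these data known. The text names all members and, of each list, the genes called, the 3 with the largest change and the 3 most abundant, and the 3 genes most like each member. The adipocyte and Schwann cell marker sums were 93.7 to 139 and 82.4 to 254 TPM, and 13 to 20.96 and 14.3 to 21.5 TPM (*Nup210*-/- and *Nup210*+/+), and the endothelial sum was 69.5 to 78.0 and 67.9 to 85.9 TPM. Coordinates are from GENCODE M21 (GRCm38, the build of mm10), a later release than Ensembl 84. Sequences are from RefSeq on GRCm38.p6. Figures were drawn with matplotlib 3.10.9.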

Additional observations from a re-analysis of the deposited data

Results flagged for a closer look

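In each genotype the most extreme library was compared with the nearest of the others, as a share of the range of the 4, for the 10 members and 5 ratios. Of 30 groups, 1 exceeded Dixon's critical value for 4 samples, and chance gives about 1 in 20, or 1.5 of 30. This was *Mirg* in *Nup210*-/-, where replicate 1 was at 0.43 TPM against 1.73 to 1.90 TPM in replicates 2 to 4 (gap 0.884 of the range). *Rian* in the same library was 29.21 TPM and *Meg3* 16.99 TPM, inside the range of the other *Nup210*-/- libraries. The number of reads behind 0.43 TPM is unknown.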

How the results depend on the processing

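No member was called under any of 20 alternatives of the limma analysis, and no gene of the other 3 lists, whose counts under the alternatives were added after seeing the data. Of 200 fold changes of members under alternatives, 187 kept their sign and 13 did not, all of estimates below 0.13 in size: *H19* with TPM as deposited (−0.063) and limma arrayWeights (−0.044), *Igf2* with TPM as deposited (−0.046), *Meg3* with arrayWeights (−0.046), and the others when 1 library was left out. Leaving out each library in turn gave −0.035 to 0.091 for *H19* (below 0 without *Nup210*+/+ replicate 2 or 3), −0.061 to 0.13 for *Igf2* (without *Nup210*-/- replicate 2 or 3 or *Nup210*+/+ replicate 4), −0.0025 to 0.29 for *Meg3* (without *Nup210*+/+ replicate 3), −0.014 to 0.24 for *Rian* (without replicate 3 of either genotype) and −0.15 to 0.025 for *Plagl1* (above 0 without *Nup210*-/- replicate 2). The same gave 0.40 to 0.64 for *Peg3*, with an adjusted p of 0.152 to 0.397 over all alternatives, 0.32 to 0.66 for *Mirg*, 0.077 to 0.32 for *Dlk1*, −0.24 to −0.064 for *Cdkn1c* and −0.16 to −0.084 for *Grb10*. The log2 ratio of *Rian* to *Meg3* ranged from −0.17 to 0.054 and that of *Igf2* to *H19* from −0.13 to 0.13 when 1 library was left out, those of *Mirg* to *Meg3* and *Rian* from 0.28 to 1.04 and 0.27 to 1.15, and that of *Dlk1* to *Meg3* from 0.054 to 0.50. No pair of members passed an adjusted p of 0.05 with TPM as deposited or without *Nup210*+/+ replicate 2.

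The count of all genes called was 16 (7 higher, 9 lower). It was 1 with any TPM above 0, 0 at a mean TPM of 0.1, 27 at a mean TPM of 1, 0 with upper-quartile scaling, 0 without mitochondrial genes and the 20 highest genes, 0 without trend, 84 with arrayWeights and 0 with the replicate block, and 0 to 10 when 1 library was left out. With TPM as deposited it was 14 (2 higher, 12 lower), and the median of all genes was −0.08. The cause was not tested. Both genotypes carry replicates 1 to 4, but these are different mice, and deviations of same-numbered libraries correlated by −0.03, 0.01, 0.02 and 0.09, so the numbers were not taken as pairs. With the replicate block, 0 members were called.

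The unknown depth limits *Mirg*, *Dlk1* and *Plagl1* most, whose TPM are near 1, and 4 mice per genotype give intervals that leave changes such as 1.48-fold for *Meg3* undetected.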
